A study of Mus musculus with 4 samples.

Results

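The clustered protocadherins were followed in RNA-seq of mouse embryonic fibroblasts (MEFs) with and without *Phf2*. They were taken as every gene symbol of the deposited count table that starts with Pcdha, Pcdhb or Pcdhg, which gave 59 of 24391 symbols, 15 in the alpha cluster, 22 in the beta cluster and 22 in the gamma cluster. The series holds 2 WT and 2 *Phf2* KO libraries, numbered as replicates 1 and 2. By the labels, all 4 carry *Phf2* flox/flox and ERCre/+. The sample descriptions mark the *Phf2* KO libraries as Tamox and the WT libraries as noTamox. The protocol text, which is worded alike for all 4, gives 0.5 µM 4-hydroxytamoxifen (4-OHT) for 7 days in medium with 2% charcoal-treated serum, on primary MEFs from embryos at E13.5. The cells were quiescent, having been grown to confluence and then moved to a resting medium. CreERT2 is a Cre recombinase that acts once 4-OHT is bound, and here it was expressed from Rosa26, so deletion was not limited to a cell type. No group had 4-OHT without floxed *Phf2*, so effects of 4-OHT and of *Phf2* loss cannot be told apart. Whether WT cells were kept in the deletion medium without 4-OHT, in the resting medium or with a vehicle is not named. The study calls the replicates biological, with no word on which embryos or cultures they came from, so p-values measure the spread between these libraries. By *Xist* and *Ddx3y*, replicate 1 was female and replicate 2 male in both groups. The main test has no term for the replicate number, so differences shared by both groups count as spread in it.

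Clustered protocadherins are adhesion proteins of the cadherin family that let a neuron tell its own branches from those of other neurons. Their genes lie in 3 tandem arrays on one chromosome. Each alpha and gamma isoform has its own promoter and its own large first exon, which is spliced to constant exons shared by the whole array, whereas each beta gene is a complete gene of its own. Many of the promoters are chosen when CTCF and cohesin bring them into a loop with a distant enhancer. The alternate isoforms are chosen largely at random in each neuron, and the C-type isoforms at the end of the alpha and gamma arrays are used more constantly. Phf2 is a PHD finger protein, and the study follows it as a partner of cohesin.

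Between 21094743 and 26094268 counts were assigned to genes per library. Of these, the clustered protocadherins took between 0.0874% and 0.0960%. Levels are given as CPM, which are counts scaled to a common library total, with TMM factors applied. The detection limit was set at 3 counts, or 0.116 to 0.145 CPM depending on the library. *Phf2* itself was at 134.6 and 141.8 CPM in WT and at 70.2 and 89.8 CPM in *Phf2* KO, in the order of replicates 1 and 2, as it is for every pair of values that follows. Its level was lower in both *Phf2* KO libraries, by 0.79 on the log2 scale (SE 0.14, unadjusted p = 0.00332), and its adjusted p of 0.999 from edgeR's quasi-likelihood test did not pass the threshold of 0.1. At nearly the same fold change, the adjusted p was 0.00320 in DESeq2 and 7.67e-19 in edgeR with a term for the replicate number, and both passed. The counts cover the whole gene, so reads from exons outside the floxed part are included. Fibroblast markers such as *Col1a1* were high, at a summed 70070 to 82617 CPM, and the summed neuronal markers were at 61.6 and 69.7 CPM in WT and 68.9 and 74.2 CPM in *Phf2* KO. Of the 13 listed neuronal genes, *Rbfox3*, *Snap25*, *Syt1* and *Dcx* held between 0 and 7 counts in each library. *Stmn2* held more, with 60 and 143 counts in WT and 36 and 131 in *Phf2* KO. *Syp* held 47 and 34 counts in WT and 20 and 29 in *Phf2* KO. Most of the neuronal sum came from *Map2*, *Tubb3* and *Gap43*. Macrophage markers summed to 3077 and 678 CPM in WT and to 3565 and 1077 CPM in *Phf2* KO, high in replicate 1 of both groups, and their part in the values below was not tested. In bulk RNA, fewer expressing cells and less RNA per cell cannot be told apart.

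The 3 clusters were read at very different depths. The gamma cluster summed to 789.7 and 871.2 CPM in WT and to 859.0 and 877.3 CPM in *Phf2* KO. The beta cluster summed to 70.1 and 71.9 CPM in WT and to 79.2 and 71.3 CPM in *Phf2* KO. The alpha cluster was read least, with 73 and 58 counts in WT and 59 and 54 in *Phf2* KO over all 15 symbols. It summed to 3.03 and 2.24 CPM in WT and to 2.85 and 2.25 CPM in *Phf2* KO, and most single alpha isoforms were at or under the detection limit. Gamma isoforms thus held between 91.3% and 92.3% of all counts of the 3 clusters, beta genes between 7.50% and 8.42% and alpha isoforms between 0.236% and 0.351%. The handling of reads on the constant exons of the alpha and gamma arrays is not given, and it could change these shares. In all 3 clusters the summed levels of WT and *Phf2* KO overlapped, and the log2 ratio of *Phf2* KO over WT was -0.05 for alpha, 0.08 for beta and 0.06 for gamma. These sums are descriptions without a test, since isoforms of one cluster are not replicates. An annotation of the same build (GENCODE M1 on mm9) holds the alpha array on chromosome 18 at 37089939 to 37347311 under *Pcdha11* and the gamma array at 37833989 to 38001527 under *Pcdhgc5*, with the beta genes between them.

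**Figure D1:**
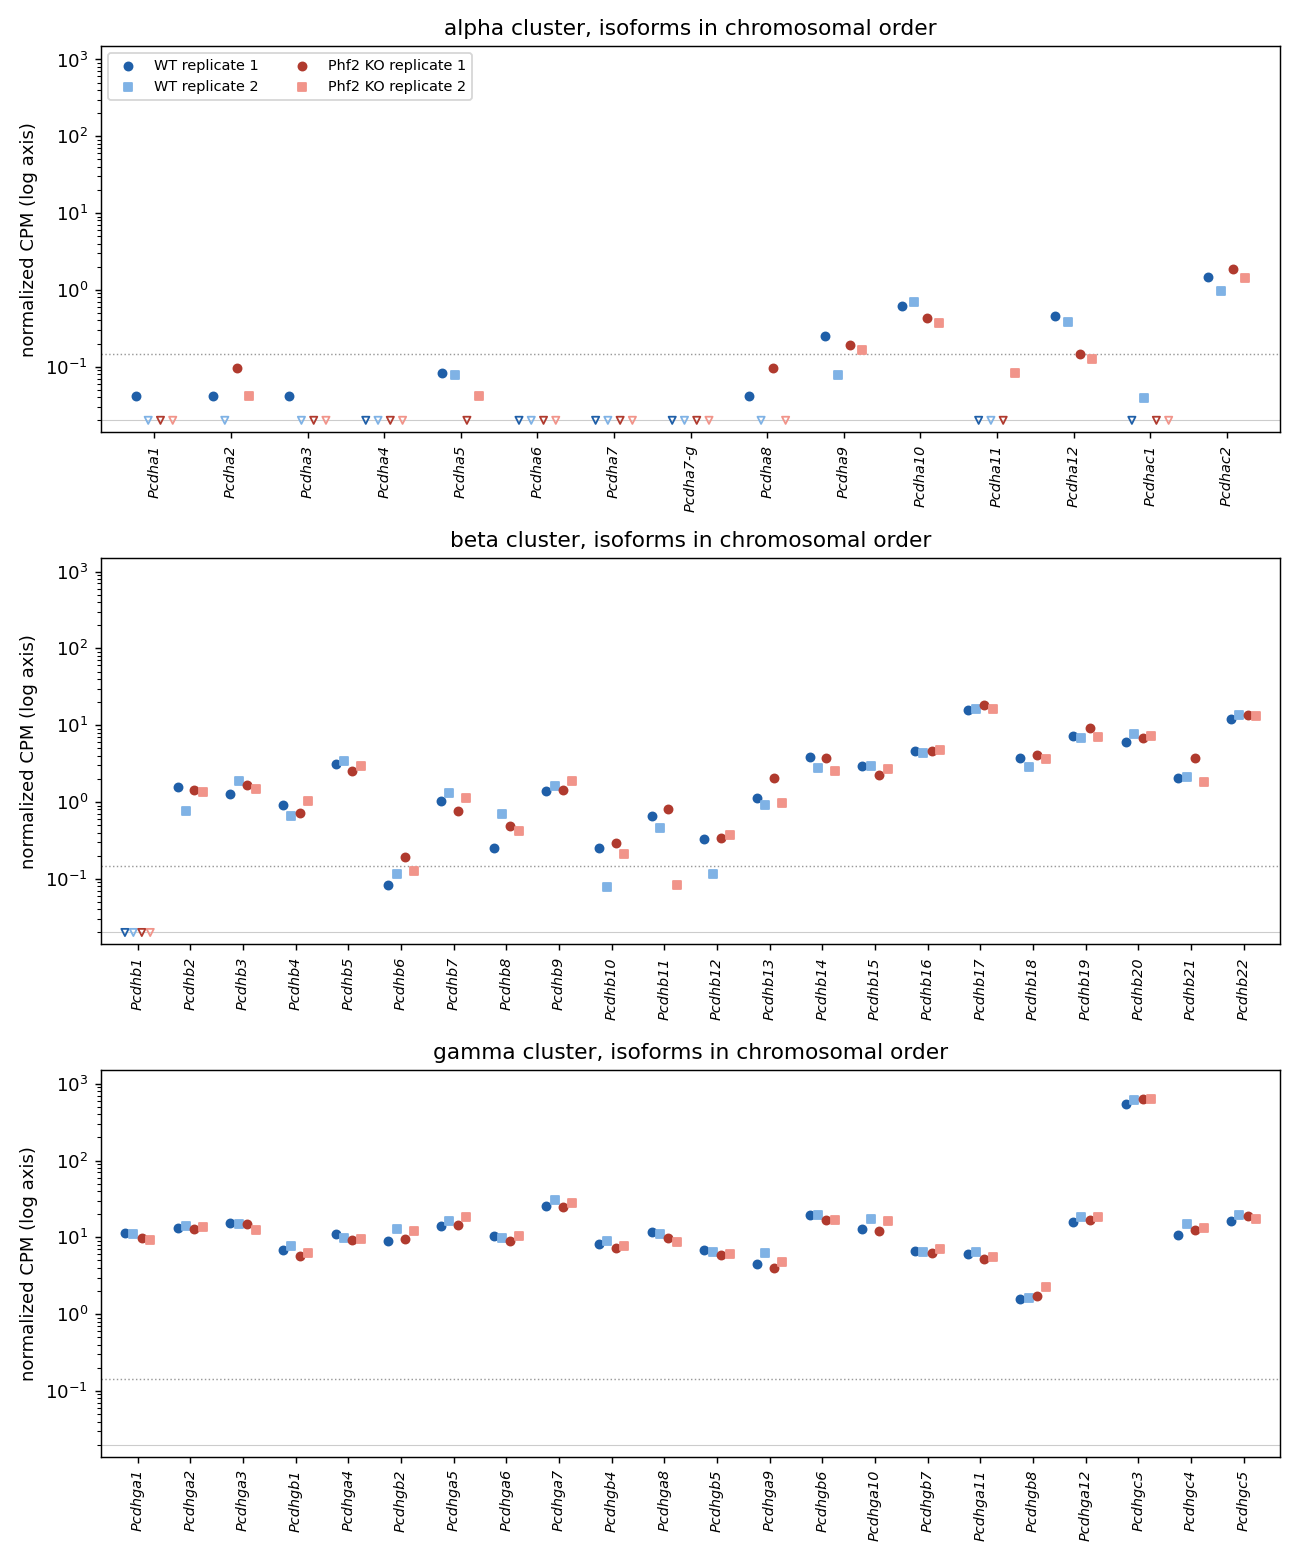
Level of each clustered protocadherin in chromosomal order, in CPM on a log axis, with one panel per cluster, circles for replicate 1, squares for replicate 2, blue for WT and red for *Phf2* KO. Open triangles mark a count of 0 and the dotted line the highest CPM that 3 counts are worth in a library, 0.145. Pcdhgc3 stands alone between 551.8 and 633.7 CPM, most alpha isoforms lie at or under the dotted line, and the 4 libraries follow the same profile.

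In the alpha cluster, 1 C-type isoform and a few alternate isoforms carried the reads. *Pcdhac2*, the last alpha promoter, had 35 and 25 counts in WT and 39 and 34 in *Phf2* KO, and it was the most counted alpha isoform in each library. Reads on the shared constant exons, if given to a single alpha symbol, would raise its count and share, and this was not tested. *Pcdha10* followed with 15 and 18 counts in WT and 9 and 9 in *Phf2* KO, then *Pcdha12* with 11 and 10 counts in WT and 3 and 3 in *Phf2* KO, and *Pcdha9* with 6 and 2 against 4 and 4. These isoforms together with *Pcdha5* made up between 93.2% and 98.3% of the alpha counts. *Pcdhac1*, the other C-type isoform, had a single count in WT replicate 2 and none elsewhere. *Pcdha4*, *Pcdha6*, *Pcdha7* and *Pcdha7-g* had no count in any library, and no other alpha isoform exceeded 2 counts. Of the 15 alpha symbols, 2 passed the filter on low counts and were tested.

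*Pcdha10* and *Pcdha12* were counted less in both *Phf2* KO libraries than in both WT libraries, on few counts, and *Pcdhac2* was not. Both *Phf2* KO libraries also lay below both WT libraries for 18.0% of all tested genes. Summed over the 13 alternate isoforms, there were 38 and 32 counts in WT and 20 and 20 in *Phf2* KO, or 1.58 and 1.23 CPM against 0.965 and 0.832 CPM, so both *Phf2* KO libraries lay below both WT libraries (log2 ratio -0.64). This rested on *Pcdha10* and *Pcdha12*, since the other 11 alternate isoforms held 12 and 4 counts in WT against 8 and 8 in *Phf2* KO. The C-type pair summed to 35 and 26 counts in WT and 39 and 34 in *Phf2* KO, with overlapping CPM (log2 ratio 0.43). *Pcdhac2* accordingly made up 47.9% and 43.1% of alpha counts in WT and 66.1% and 63.0% in *Phf2* KO. Its exact binomial 95% intervals ran from 30.2% to 60.0% over the WT libraries and from 48.7% to 77.9% over the *Phf2* KO libraries, and so they overlapped between groups. The mean share in WT was 45.5% ± 3.42 (SD, n = 2) and that in *Phf2* KO 64.5% ± 2.22 (SD, n = 2), with p = 0.333 in an exact two-sided permutation test, the smallest that 2 against 2 libraries allow. Neither tested isoform passed the test. For *Pcdha10* the log2 fold change was -0.70 (95% confidence interval -1.74 to 0.34, adjusted p = 0.999 by edgeR), and for *Pcdhac2* it was 0.45 (-0.49 to 1.38). *Pcdha12* was removed by the filter. When every gene with at least 1 count was fitted with edgeR, *Pcdha12* had a log2 fold change of -1.61, on 6 *Phf2* KO counts in all. In that edgeR fit its unadjusted p was 0.0399 and its adjusted p 0.975. There, 407 of 18924 genes were lower and 246 higher at an unadjusted p under 0.05. Of 54 clustered protocadherins, 1 was lower and 0 were higher.

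The highest beta genes lay late in the array. Because each is a gene of its own, levels per kb of exon could be compared, with the annotation placing all 22 on chromosome 18 between 37424652 (the start of *Pcdhb1*) and 37681073 (the end of *Pcdhb22*). Exon lengths were those of GENCODE M1, from 2350 bases in *Pcdhb8* to 7131 in *Pcdhb19*. The annotation used for counting is not given and may hold other lengths, which would change the values per kb and their order. *Pcdhb1*, at the first position, had no count, and *Pcdhb17* and *Pcdhb22*, late in the array, were the highest at a mean over the 4 libraries of 5.12 and 4.26 CPM per kb. *Pcdhb20* followed at 1.97 CPM per kb and *Pcdhb19* at 1.07 CPM per kb, and no other beta gene reached 1 CPM per kb in the mean. Over the 22 genes, the level per kb and the position in the array had a Spearman's rho of 0.68 and a Pearson's r of 0.55. This describes the genes of the same 4 libraries, which are not independent, and carries no test. Beta genes are alike in sequence. The share of their 50-base windows that occur again elsewhere in the protocadherin locus, at the read length used here, ran from 0% in *Pcdhb1* to 12.0% in *Pcdhb12*, so reads from such windows could be lost or misplaced and small differences between neighbours are uncertain.

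**Figure D2:**
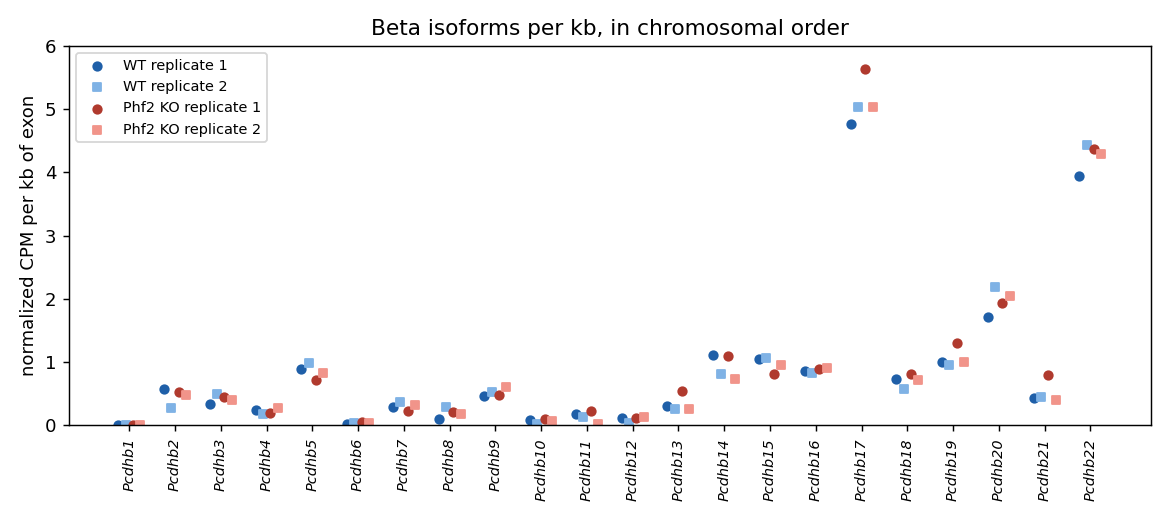
Level of each beta gene per kb of exon (CPM per kb, linear axis from 0), in chromosomal order, with one point per library. Pcdhb17 and Pcdhb22 lie far above the rest in all 4 libraries, and Pcdhb1 lies at 0.

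Per gene, the most counted beta member was *Pcdhb17*, with 15.6 and 16.5 CPM in WT and 18.4 and 16.5 CPM in *Phf2* KO. *Pcdhb22* had 12.1 and 13.6 CPM in WT and 13.4 and 13.1 CPM in *Phf2* KO. The groups nearly met for *Pcdhb17* and overlapped for *Pcdhb22*, and *Pcdhb17* held a mean of 22.6% of beta counts in WT and 23.2% in *Phf2* KO. The fold changes were 0.12 (95% confidence interval -0.21 to 0.45) for *Pcdhb17* and 0.05 (-0.31 to 0.40) for *Pcdhb22* on the log2 scale. *Pcdhb19* had 7.18 and 6.82 CPM in WT and 9.31 and 7.11 CPM in *Phf2* KO. *Pcdhb20*, which GENCODE M1 lists as a pseudogene, had 6.10 and 7.78 CPM in WT and 6.85 and 7.28 CPM in *Phf2* KO. Their log2 fold changes were 0.23 and 0.03, and neither passed the test.

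Of the 22 beta genes, 18 were tested, and *Pcdhb1*, *Pcdhb6*, *Pcdhb10* and *Pcdhb12* had too few counts. Among the tested beta genes whose counts averaged 20 or more, the largest positive fold changes were those of *Pcdhb13* and *Pcdhb21*. *Pcdhb13* had 1.12 and 0.925 CPM in WT and 2.03 and 0.957 CPM in *Phf2* KO, and *Pcdhb21* had 2.03 and 2.12 CPM in WT and 3.72 and 1.83 CPM in *Phf2* KO. Both rested on *Phf2* KO replicate 1. Their log2 fold changes were 0.54 and 0.41, and without that library they were -0.10 and -0.18. The largest negative fold changes were those of *Pcdhb7* (1.04 and 1.31 CPM in WT, 0.772 and 1.12 CPM in *Phf2* KO) and *Pcdhb5* (3.15 and 3.47 CPM in WT, 2.51 and 2.91 CPM in *Phf2* KO). The groups overlapped for *Pcdhb7*, with a log2 fold change of -0.30, and did not overlap for *Pcdhb5*, with -0.29. The median log2 fold change of the tested beta genes was 0.06, against 0.01 for all 13668 genes tested.

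In the gamma cluster 1 isoform dominated. *Pcdhgc3*, the first of the C-type isoforms, had 13299 and 15750 counts in WT and 13094 and 15234 in *Phf2* KO, or 551.8 and 607.0 CPM against 632.0 and 633.7 CPM. It was counted between 19.9 and 25.7 times as often as the next isoform, *Pcdhga7*. The first exons of the 9 annotated gamma transcripts with a variable first exon run from 2565 to 2961 bases, a 1.15-fold range. The individual isoforms could not be told apart in that annotation, so this range may not include *Pcdhgc3*. The other C-type isoforms were far lower, *Pcdhgc4* at 10.7 and 15.0 CPM in WT and 12.3 and 13.3 CPM in *Phf2* KO, and *Pcdhgc5* at 16.4 and 19.7 CPM in WT and 18.7 and 17.3 CPM in *Phf2* KO. Gamma A and gamma B isoforms, the alternate types, ran from *Pcdhgb8*, a transcribed pseudogene in RefSeq, at 1.58 to 2.29 CPM, up to *Pcdhga7*, at 25.5 and 30.5 CPM in WT and 24.6 and 28.0 CPM in *Phf2* KO. All 22 gamma isoforms were detected in each library and were tested. How reads on the shared constant exons were counted is not given in the sources used here. The lowest gamma count was 36, for *Pcdhgb8* in *Phf2* KO replicate 1. Reads counted once for every gamma symbol, *Pcdhgb8* included, could have added no more than that there. This sets no limit on constant-exon reads given to a single symbol such as *Pcdhgc3*, or to symbols other than *Pcdhgb8*.

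The share of gamma counts on *Pcdhgc3* was higher in both *Phf2* KO libraries than in both WT libraries. The WT libraries had 69.9% and 69.7%, and the *Phf2* KO libraries 73.6% and 72.2%. The group means were 69.8% ± 0.135 (SD, n = 2) and 72.9% ± 0.945 (SD, n = 2), which differed by 3.13 percentage points, and the exact binomial 95% intervals of the libraries did not overlap between groups (at most 70.5% in WT and at least 71.6% in *Phf2* KO). Intervals cover counting error only, and the exact two-sided permutation test again gave its smallest possible p of 0.333. The gamma A and B isoforms together held 26.7% and 26.3% of gamma counts in WT and 22.8% and 24.3% in *Phf2* KO. Since the shares of one cluster sum to a whole, this is largely the same difference seen from the other side. In level, gamma A and B summed to 210.8 and 229.5 CPM in WT and 196.0 and 213.0 CPM in *Phf2* KO, which overlapped (log2 ratio -0.11), while the C-type isoforms summed to 578.9 and 641.6 CPM in WT and 663.0 and 664.3 CPM in *Phf2* KO (log2 ratio 0.12). The log2 fold change of *Pcdhgc3* was 0.13 (95% confidence interval -0.13 to 0.39, unadjusted p = 0.256) and did not pass the test.

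**Figure D3:**
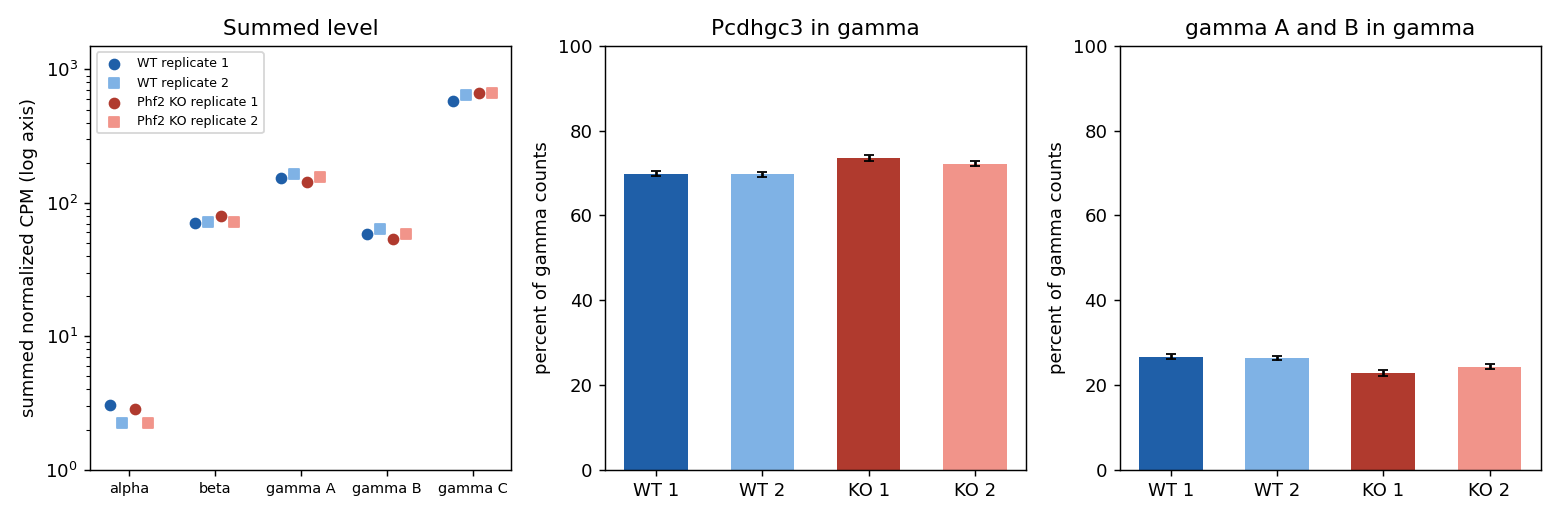
Left, summed level of each group of isoforms per library in CPM on a log axis. Middle and right, percent of gamma counts on Pcdhgc3 and on the gamma A and B isoforms, as bars from 0 with exact binomial 95% intervals. Pcdhgc3 holds 69.7% to 69.9% of gamma counts in WT and 72.2% to 73.6% in Phf2 KO.

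The alternate gamma isoforms lay mostly on the lower side in *Phf2* KO, each by a small amount. *Pcdhgb6* had 19.5 and 19.3 CPM in WT and 16.9 and 16.9 CPM in *Phf2* KO, with no overlap between groups and a log2 fold change of -0.20 (95% confidence interval -0.48 to 0.09). *Pcdhga8* had 11.9 and 11.0 CPM in WT and 9.89 and 8.82 CPM in *Phf2* KO, also without overlap, and its log2 fold change of -0.29 had the lowest p of all tested clustered protocadherins (unadjusted p = 0.114, adjusted p = 0.999 by edgeR). *Pcdhga9* had 4.48 and 6.32 CPM in WT and 4.01 and 4.78 CPM in *Phf2* KO, with a log2 fold change of -0.30 and overlapping groups. *Pcdhgb8* differed most in the other direction, from 1.58 and 1.62 CPM in WT to 1.74 and 2.29 CPM in *Phf2* KO (log2 fold change 0.33, 95% confidence interval -0.39 to 1.06). The log2 fold changes of *Pcdhga7*, *Pcdhgc4* and *Pcdhgc5* were -0.09, -0.0024 and -0.0058.

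No clustered protocadherin was called between *Phf2* KO and WT. Of the 42 that were tested, 0 passed an adjusted p of 0.1 in edgeR's quasi-likelihood test, where 0.00732% of all tested genes did, and 0 had an unadjusted p under 0.05, where 4.21% of all tested genes did. DESeq2 and limma-voom likewise called 0 of them, where they called 0.4% and 0.0% of all genes they tested. With a term for the replicate number, edgeR called 11.0% of all tested genes and 0 clustered protocadherins. For 32 of the 42, the 95% confidence interval lay within 1 log2 unit of 0 on both sides, against 75.8% of all tested genes. For the other 10, the interval reached past 1 log2 unit on at least one side.

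Without a call, the order of the libraries can be described. Groups did not overlap for 15 of the 42 tested members, against 33.5% of all tested genes. In the beta cluster, *Pcdhb16* and *Pcdhb17* were above WT in both *Phf2* KO libraries and *Pcdhb5* and *Pcdhb15* below. In the gamma cluster, *Pcdhgb8* and *Pcdhgc3* were above, where 15.5% of all tested genes were, and 8 of 22 were below, where 18.0% of all tested genes were. These 8 were *Pcdhga1*, *Pcdhga4*, *Pcdhga8*, *Pcdhga11*, *Pcdhgb1*, *Pcdhgb4*, *Pcdhgb5* and *Pcdhgb6*. Taken within each replicate number, 13 of 22 gamma isoforms were lower in *Phf2* KO both times, all of them of the A or B type, and 3 were higher both times (*Pcdhga5*, *Pcdhgb8* and *Pcdhgc3*), against 30.2% and 32.6% of all tested genes. The fitted log2 fold change was below 0 for 17 of 22 gamma isoforms and for 6 of 18 beta genes, against 48.8% of all tested genes. The median log2 fold change was -0.12 for gamma A and -0.16 for gamma B. The gamma isoforms come from the same 4 libraries and the same array, so they are not independent, and these counts were given no test.

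**Figure D4:**
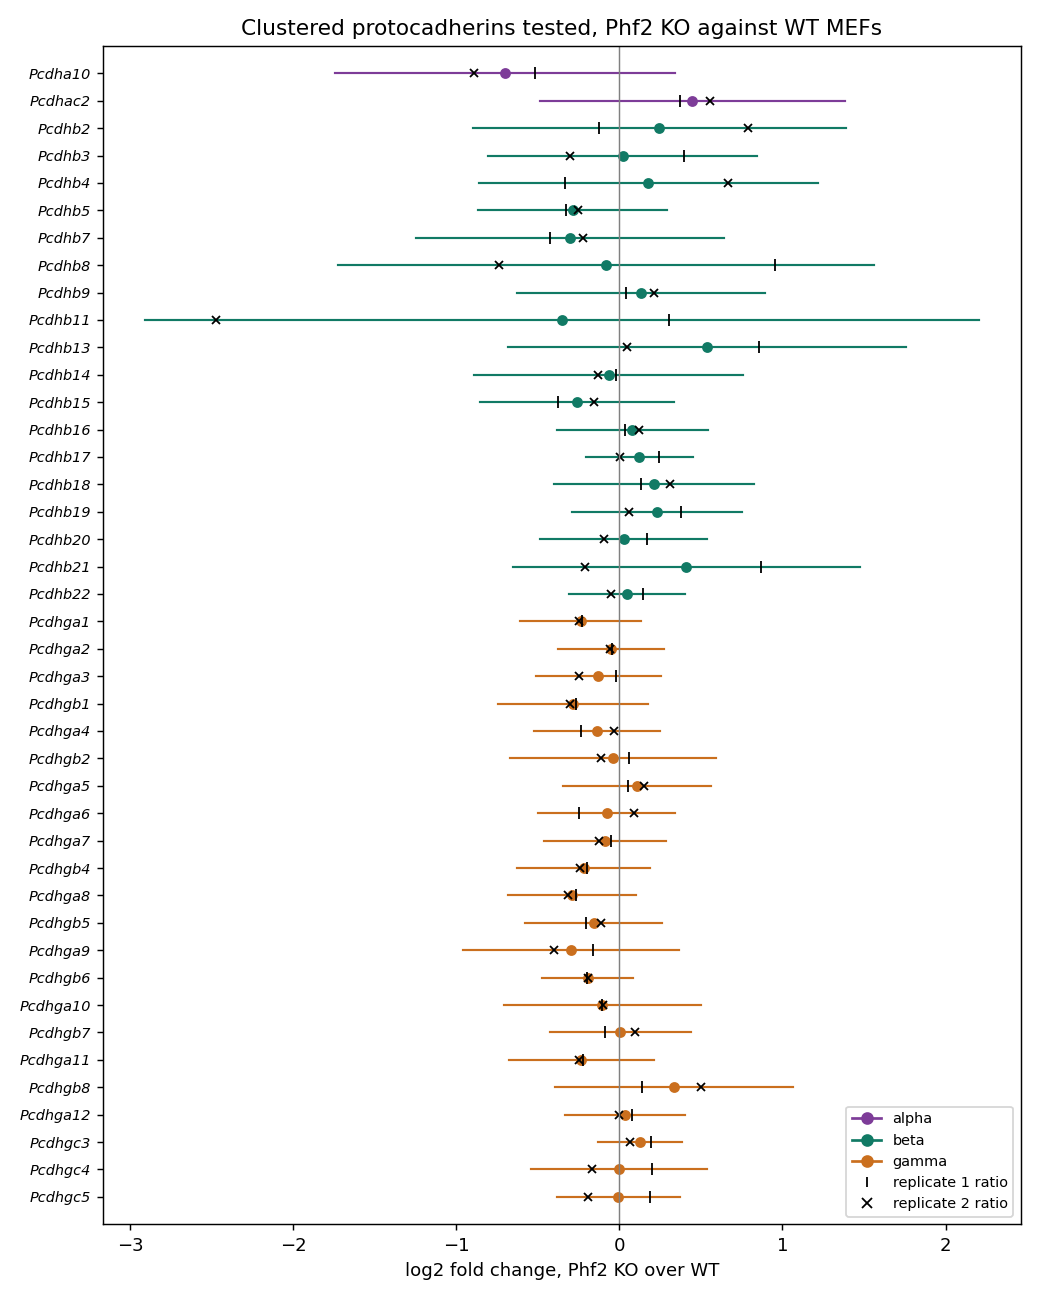
Log2 fold change of Phf2 KO over WT for the 42 clustered protocadherins tested, with 95% confidence intervals from edgeR's quasi-likelihood fit, coloured by cluster, and the ratio within replicate 1 (bar) and replicate 2 (cross). Every interval includes 0, and the gamma A and B points lie mostly left of 0.

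Genes whose products act on the clusters or with their proteins were read from the same fit. None of the 24 listed regulators of the promoters and enhancers (CTCF, cohesin with its loaders and releasers, DNA methylation and H3K9 methylation) was called by edgeR, and their median log2 fold change was -0.10. With a term for the replicate number, which called 11.0% of all tested genes, those called included *Smchd1* and *Stag1*, which were lower, and *Mau2*, which was higher. *Ctcf* had 58.6 and 56.7 CPM in WT and 50.1 and 50.1 CPM in *Phf2* KO (log2 fold change -0.20, unadjusted p = 0.0605). *Smchd1* takes part in the methylation and silencing of genes in the clusters. It had 25.5 and 22.2 CPM in WT and 19.3 and 18.7 CPM in *Phf2* KO (log2 fold change -0.33, unadjusted p = 0.0448, adjusted p = 0.999 by edgeR). *Wapal*, the older symbol of *Wapl*, which releases cohesin from DNA, had 38.3 and 32.6 CPM in WT and 33.7 and 30.5 CPM in *Phf2* KO. *Dnmt3b*, a DNA methyltransferase, had 2.57 and 2.58 CPM in WT and 1.54 and 3.12 CPM in *Phf2* KO, and the groups overlapped for both. None of the 16 listed partners that bind, cleave or signal from the proteins was called, with a median of -0.01. None of the 9 tested neighbours on the chromosome was called, with a median of -0.07. *Taf7*, a gene between the beta and gamma arrays, had 5.39 and 4.82 CPM in WT and 4.87 and 5.24 CPM in *Phf2* KO.

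Protocadherins outside the clusters gave a comparison within the same family. None of the 10 tested, of 12 listed, was called by edgeR, with a median log2 fold change of -0.08. With a term for the replicate number, 5 of the 10 were called, *Pcdh10*, *Pcdh15*, *Pcdh17* and *Pcdh18* lower and *Pcdh1* higher, against 11.0% of all tested genes. The difference between these genes and the clustered ones was not tested. In the fit without that term, *Pcdh10* and *Pcdh18* had an unadjusted p under 0.05, as did 4.21% of all tested genes. *Pcdh18* had 88.1 and 102.2 CPM in WT and 75.0 and 74.0 CPM in *Phf2* KO, and *Pcdh10* had 18.4 and 26.8 CPM in WT and 9.65 and 15.6 CPM in *Phf2* KO. Both *Phf2* KO libraries were below both WT libraries for each, as for 18.0% of all tested genes, with log2 fold changes of -0.35 and -0.83. *Pcdh1* went the other way, with 8.30 and 10.5 CPM in WT and 11.3 and 15.2 CPM in *Phf2* KO, no overlap between groups and a log2 fold change of 0.50 (unadjusted p = 0.0805). The genes named in this comparison were chosen after their values were seen.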

How the data were processed

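Per the labels and the study's methods, single-end reads of 50 nt were trimmed with Trim Galore, cleared of ribosomal RNA with Bowtie2, aligned with STAR against mm9 and counted per gene, on the reverse strand, with featureCounts. The authors deposited whole-number counts per gene symbol, not normalized. Versions, the annotation and the handling of reads on several genes or positions are not given in the sources used here. The deposited DESeq2 table of fold changes and p-values was not used.

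The test was edgeR 4.0.16 in R 4.3.3 (filterByExpr with a minimum count of 10, TMM, glmQLFit, glmQLFTest, genotype only). P-values of 13668 genes were adjusted by Benjamini-Hochberg, and genes under 0.1 were called. Alternatives were DESeq2 1.42.0, limma 3.58.1 (voom), other scalings and filters, a threshold of 0.05, a replicate block and each library left out. Sums, shares and permutation tests used Python 3.11.15, pandas 2.3.3 and SciPy 1.17.1. Order in the arrays came from RefSeq (GRCm38.p6, 58 of 59 symbols matched, no coordinates used), and beta exons from GENCODE M1 on mm9. Replicates of a group differed by far more than counting noise (chi-square per degree of freedom 51.0 in WT and 35.1 in *Phf2* KO).

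The members, lists and tests were chosen with earlier results of these data known. Named genes are called members, C-type isoforms, the 4 highest isoforms per cluster by CPM, the 2 largest fold changes each way per cluster at a mean count of at least 20, *Phf2*, *Ctcf*, *Wapl*, *Smchd1*, *Dnmt3b*, *Taf7*, *Xist* and *Ddx3y*, and others are named in describing counts. Some called regulators are not reported here.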

Additional observations from a re-analysis of the deposited data

How the results depend on the processing

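No clustered protocadherin was called under any alternative run, and of the fold changes of named genes under the alternatives 242 kept their direction and their side of the threshold, 18 changed sign and 3 passed the threshold. For all genes, DESeq2 called 10 higher and 54 lower in *Phf2* KO, against 0 higher and 1 lower in the main test. No gene was lower by limma-voom, and 0 were at a threshold of 0.05 or with any 1 library left out (range 0 to 0). For these counts, the cause was not tested. Adding the replicate block called 789 genes higher and 711 lower, of them 0 clustered protocadherins and 5 of 10 other protocadherins, and *Pcdhga8* alone among the clustered ones had an unadjusted p under 0.05 (0.0387), against 19.6% of all tested genes. *Phf2* (also by DESeq2) and *Smchd1* passed the threshold with the block. The labels do not say that a number marks a pair. The replicate differences of the groups correlated at r = 0.854 over 11556 genes, and *Xist* (416.6 and 0.116 CPM in WT, 402.3 and 0.499 CPM in *Phf2* KO) and *Ddx3y* (0.249 and 49.0 CPM, 0.483 and 53.9 CPM) put a female library as replicate 1 and a male one as replicate 2 in both groups. The log2 ratio of the alpha sum was -0.66 without *Pcdhac2*, and that of the gamma sum -0.094 without *Pcdhgc3*. With 1 library left out, the alpha sum ranged from -0.27 to 0.20, the beta median from -0.02 to 0.08 and the gamma median from -0.18 to -0.04. *Pcdhgc4* was 0.0040 by DESeq2, 0.014 by limma-voom, 0.0056 under RLE and 0.0054 with the replicate block, and *Pcdhgc5* was 0.0016 under RLE. Left out 1 library at a time, the log2 fold change ranged from -0.21 to 0.24 for *Pcdhgc4*, -0.12 to 0.12 for *Pcdhgc5*, -0.023 to 0.12 for *Pcdhb22*, -0.13 to 0.20 for *Pcdhb20*, -0.10 to 0.98 for *Pcdhb13*, -0.18 to 0.84 for *Pcdhb21*, -0.20 to 0.030 for *Pcdhga7*, -0.74 to 0.27 for *Dnmt3b* and -0.11 to 0.083 for *Taf7*, and the changes of sign follow from the libraries left out (*Pcdhgc4* 0.24 without WT replicate 2 and 0.05 without *Phf2* KO replicate 1, *Pcdhgc5* 0.12 and, without *Phf2* KO replicate 2, 0.05, *Pcdhb20* -0.02 without *Phf2* KO replicate 2, *Taf7* 0.04 without *Phf2* KO replicate 1).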

Other observations

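Members also differed between the replicate numbers. Of the 42 clustered protocadherins tested, replicate 2 exceeded replicate 1 in both WT and *Phf2* KO for 18, against 35.9% of all tested genes, and fell short of it in both for 11, against 32.7%. In the gamma cluster 13 of 22 were higher in replicate 2 both times and 4 were lower, while in the beta cluster 5 of 18 were higher and 6 lower. *Pcdhga10* had 13.0 and 17.4 CPM in WT and 12.1 and 16.2 CPM in *Phf2* KO, and *Pcdhb14* had 3.82 and 2.77 CPM in WT and 3.76 and 2.54 CPM in *Phf2* KO. For both genes the replicates of a group lay further apart than the group means. These genes were named after their values were seen, and no test was made of the difference between replicates.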
